A study of Mus musculus with 12 samples.

Results

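The Toll-like receptor genes of mouse peritoneal macrophages are described here: Tlr1, Tlr2, Tlr3, Tlr4, Tlr5, Tlr6, Tlr7, Tlr8, Tlr9 and Tlr13. They were taken by symbol, 1 row each, from a table of 53465 genes. All 10 were among the 20419 genes that reached 1 in 3 or more libraries, on which the main tests were run. By the usual place of the protein, 5 are receptors of the cell surface (Tlr1, Tlr2, Tlr4, Tlr5, Tlr6) and 5 of endosomes (Tlr3, Tlr7, Tlr8, Tlr9, Tlr13).

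Toll-like receptors are membrane proteins that bind molecules common to microbes and signal through the adaptor MyD88, or through TRIF in the case of TLR3 and of TLR4 after its uptake. TLR4 with its partner MD-2 senses lipopolysaccharide (LPS), TLR2 pairs with TLR1 or TLR6 to sense bacterial lipoproteins, and TLR5 senses flagellin. In endosomes, TLR3 senses double-stranded RNA, TLR7 and TLR8 single-stranded RNA, TLR9 DNA with unmethylated CpG and mouse TLR13 a stretch of bacterial ribosomal RNA.

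Peritoneal macrophages, phagocytes that live in the abdominal cavity, came from C57BL/6 mice aged 10 postnatal weeks, and their RNA was sequenced. The 12 libraries form 4 groups of 3: genotype label Lyz2Cre-BHLHE40-Fl with LPS, Lyz2Cre-BHLHE40-Fl control, Lyz2Cre with LPS and Lyz2Cre control. Both genotype labels carry Lyz2Cre, Cre recombinase expressed from the lysozyme 2 locus and active in macrophages, neutrophils and other myeloid cells. BHLHE40-Fl names a floxed allele of the transcription factor gene Bhlhe40. LPS, from the outer membrane of Gram-negative bacteria, has no dose or time in the sources used here, and no label tells if the replicates were separate mice or cultures. The p-values therefore measure only the spread between these libraries, which may be technical.

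Each library held 20489417 to 29354869 reads in genes, and a deposited value is the number of reads times a factor of 0.725 to 1.56 for that library. Bhlhe40 itself had a mean of 7893 ± 239 in Lyz2Cre-BHLHE40-Fl controls, above the 4976 ± 295 of Lyz2Cre controls (SD, n = 3). With LPS it had 2232 ± 244 in Lyz2Cre-BHLHE40-Fl and 2467 ± 226 in Lyz2Cre. Those groups overlapped (log2 difference -0.15, limma adjusted p = 0.201). A sum over the whole gene does not check for the loss of single exons, and each genotype difference below rests on the label. All 10 macrophage markers had reads in all groups, summing to 88702 to 92384 in Lyz2Cre-BHLHE40-Fl libraries with LPS, 64637 to 72785 in Lyz2Cre-BHLHE40-Fl controls, 171650 to 181020 in Lyz2Cre libraries with LPS and 132120 to 146430 in Lyz2Cre controls. The 16 markers of mesothelium and stroma summed to 12285 to 16140 in Lyz2Cre-BHLHE40-Fl libraries with LPS, 11706 to 15033 in Lyz2Cre-BHLHE40-Fl controls, 3148.7 to 4625 in Lyz2Cre libraries with LPS and 1951.2 to 2125.1 in Lyz2Cre controls. Of these, Upk3b stood at 0 in every Lyz2Cre library. B cell markers summed to at most 151.5 in any library. The 10 neutrophil markers summed to 4234.3 to 4750.2 in Lyz2Cre-BHLHE40-Fl libraries with LPS, 1792.1 to 1893.9 in Lyz2Cre-BHLHE40-Fl controls, 17566 to 17772 in Lyz2Cre libraries with LPS and 24684 to 28842 in Lyz2Cre controls. Of that list Ly6g was at 0 in all 12 libraries. In each Lyz2Cre-BHLHE40-Fl group 6 of the 10 stayed below 10 in every library, and in each Lyz2Cre group 5 did. Mmp8, a neutrophil collagenase, made up most of the Lyz2Cre sums. It averaged 205.8 in Lyz2Cre-BHLHE40-Fl with LPS, 365.6 in its controls, 14408 in Lyz2Cre with LPS and 24800 in its controls. Csf3r went the other way, at 4141.5 in Lyz2Cre-BHLHE40-Fl and 2161.9 in Lyz2Cre with LPS, and at 1408.3 and 1104.4 in their controls. Cxcr2 averaged 22.0 in Lyz2Cre-BHLHE40-Fl controls, against 1.63 in Lyz2Cre controls. The 10 T and NK cell markers summed to 1023.2 to 1307.4 in Lyz2Cre-BHLHE40-Fl libraries with LPS, 36.9 to 56.8 in Lyz2Cre-BHLHE40-Fl controls, 494.7 to 572.3 in Lyz2Cre libraries with LPS and 139.4 to 187.3 in Lyz2Cre controls. Most of that sum with LPS was Lck, at 1133 ± 146 in Lyz2Cre-BHLHE40-Fl and 374.2 ± 32.9 in Lyz2Cre (SD, n = 3). In bulk RNA, fewer cells of a type and less RNA per cell cannot be told apart.

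LPS came with a change in which Toll-like receptor RNAs dominated. Per kilobase of annotated exon, Tlr13 ranked highest of the 10 in controls of both labels, and Tlr2 ranked highest with LPS. As a share of the summed value per kilobase, Tlr2 took 59.8% ± 1.39 in Lyz2Cre-BHLHE40-Fl libraries with LPS, against 3.12% ± 0.332 in their controls (SD, n = 3). In Lyz2Cre it took 48.2% ± 0.585 with LPS, against 13.5% ± 2.31 in controls. Tlr13 took 2.02% ± 0.149 in Lyz2Cre-BHLHE40-Fl libraries with LPS, against 53.3% ± 1.03 in their controls. In Lyz2Cre its share was 6.44% ± 0.377 with LPS, against 39.4% ± 1.21 in controls. The groups of libraries did not overlap for either gene. Such shares do not depend on how libraries are scaled to each other.

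**Figure D1:**
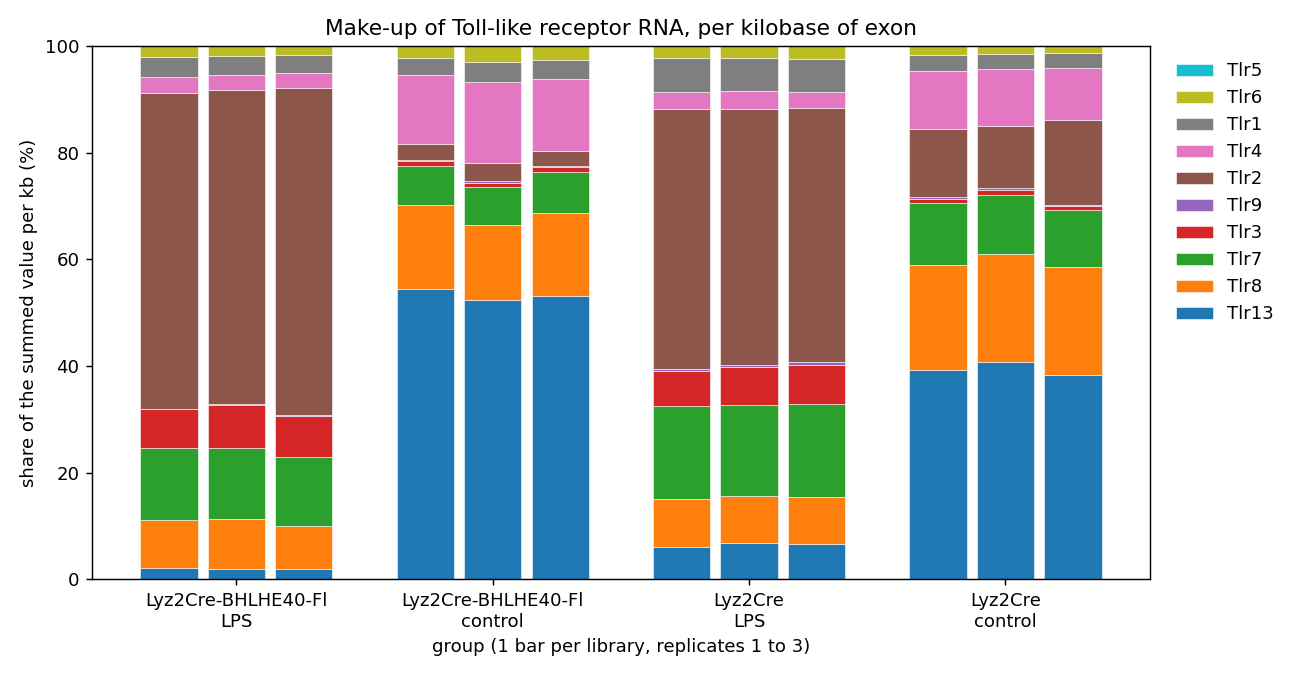
Share (%) of each Toll-like receptor gene in the summed deposited value per kilobase of exon of the 10 genes; each bar is 1 library and groups are named below. Tlr13 is the largest block of every control bar, and Tlr2 is the largest block of every bar with LPS.

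The 5 endosomal genes together held 31.9% ± 1.09 of the summed value in Lyz2Cre-BHLHE40-Fl libraries with LPS, against 76.9% ± 2.03 in their controls. In Lyz2Cre they held 40.1% ± 0.646 with LPS, against 71.7% ± 1.64 in controls. The sum over the 10 genes per kilobase was 24222 ± 552 in Lyz2Cre-BHLHE40-Fl libraries with LPS, against 5460 ± 430 in their controls. The Lyz2Cre sum was 26341 ± 552 with LPS, against 9968 ± 532 in controls. With LPS, Tlr2, Tlr7 and Tlr8 were the 3 highest per kilobase in both labels, at 14482, 3224 and 2122 in Lyz2Cre-BHLHE40-Fl and at 12698, 4571 and 2349 in Lyz2Cre. Tlr9 and Tlr5 ranked ninth and last in all 4 groups, with Tlr5 at most 2.24 per kilobase.

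With LPS, 7 of the 10 genes rose in both genotype labels: Tlr1, Tlr2, Tlr3, Tlr6, Tlr7, Tlr8 and Tlr9. Tlr13 fell in both. In Lyz2Cre-BHLHE40-Fl libraries Tlr5 fell as well and Tlr4 did not pass the test. In Lyz2Cre libraries Tlr4 fell and Tlr5 did not pass the test. A gene counts as changed at a limma p below 0.05 after Benjamini-Hochberg adjustment over all genes tested. By that rule 24.9% of all genes rose and 25.6% fell with LPS in Lyz2Cre-BHLHE40-Fl, and 25% rose and 23.9% fell with LPS in Lyz2Cre. The median log2 change of the 10 genes was 1.60 in Lyz2Cre-BHLHE40-Fl, where that of all genes was -0.05, and 2.07 in Lyz2Cre, where that of all genes was 0. Both LPS comparisons have their own controls and share no library.

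Scaling bears on the small changes. Summed deposited values were higher with LPS than in controls, and bringing every library to the same total shifted the all-gene median to a log2 of -0.56 in Lyz2Cre-BHLHE40-Fl and to -0.57 in Lyz2Cre. Of the 20741 genes that then passed the filter, 2618 rose and 9571 fell in Lyz2Cre-BHLHE40-Fl, against 5086 and 5234 of 20419 as deposited. In Lyz2Cre 2393 rose and 9499 fell, against 5106 and 4871 as deposited. Under that scaling Tlr1, Tlr2, Tlr3, Tlr6, Tlr7 and Tlr9 were still higher and Tlr13 lower with LPS in both labels, while Tlr8 turned round in Lyz2Cre and Tlr4 was lower in both.

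**Figure D2:**
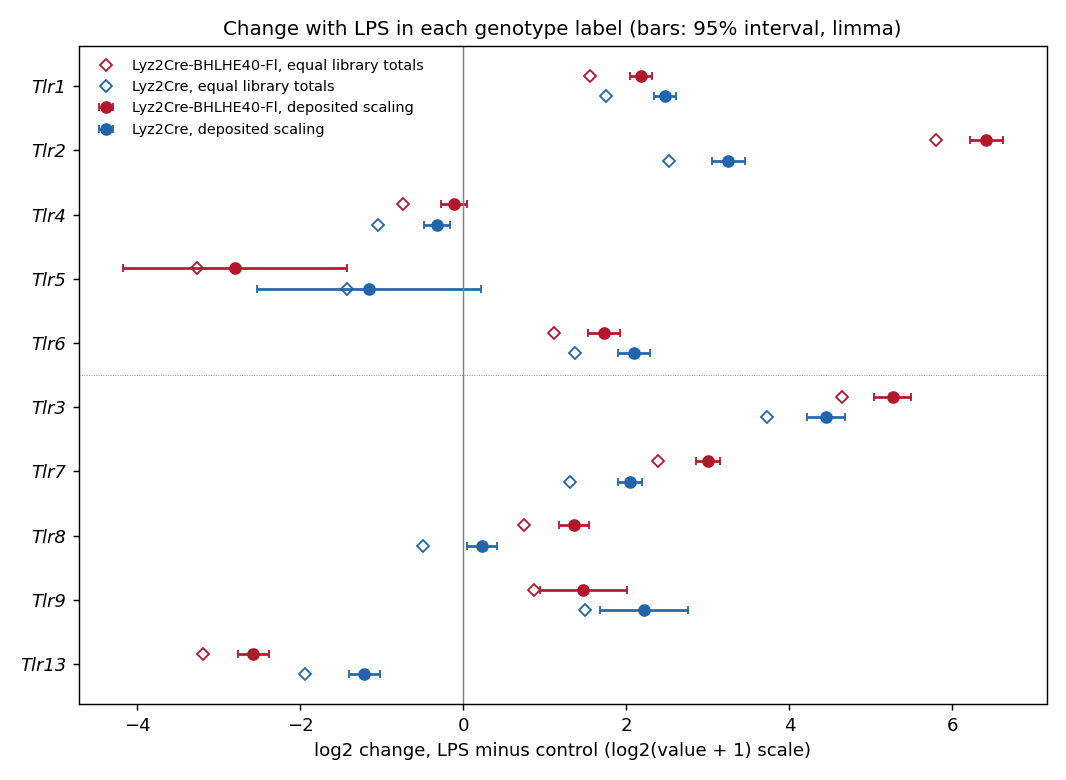
Log2 change with LPS, LPS minus control on the log2(value + 1) scale, for each gene in Lyz2Cre-BHLHE40-Fl (red) and Lyz2Cre (blue); filled points with bars are limma estimates with 95% intervals, and open diamonds are the estimates with equal library totals. Tlr2 is farthest to the right in Lyz2Cre-BHLHE40-Fl, at 6.41, and Tlr3 in Lyz2Cre, at 4.45, while Tlr13 lies left of 0 in both labels, and surface receptors stand above the dotted line.

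Among the surface receptors, Tlr2 (ENSMUSG00000027995, chromosome 3 from 83836272 to 83841767, minus strand, mm10) moved most. Its deposited values were 44273.5, 42199.8 and 44472.2 in Lyz2Cre-BHLHE40-Fl libraries with LPS, against 538.7, 534.5 and 462.3 in their controls. In Lyz2Cre they were 37886.9, 38390.9 and 38538.6 with LPS, against 3608.2, 3691.4 and 4865.7 in controls. Every library with LPS stood above every control, and the Lyz2Cre-BHLHE40-Fl controls stood below the Lyz2Cre controls. Tlr2 was 85.3-fold higher with LPS in Lyz2Cre-BHLHE40-Fl (log2 6.41 ± 0.09 SE, limma adjusted p = 5.89e-19). In Lyz2Cre it was 9.44-fold higher (log2 3.25 ± 0.09 SE, limma adjusted p = 6.72e-15).

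**Figure D3:**
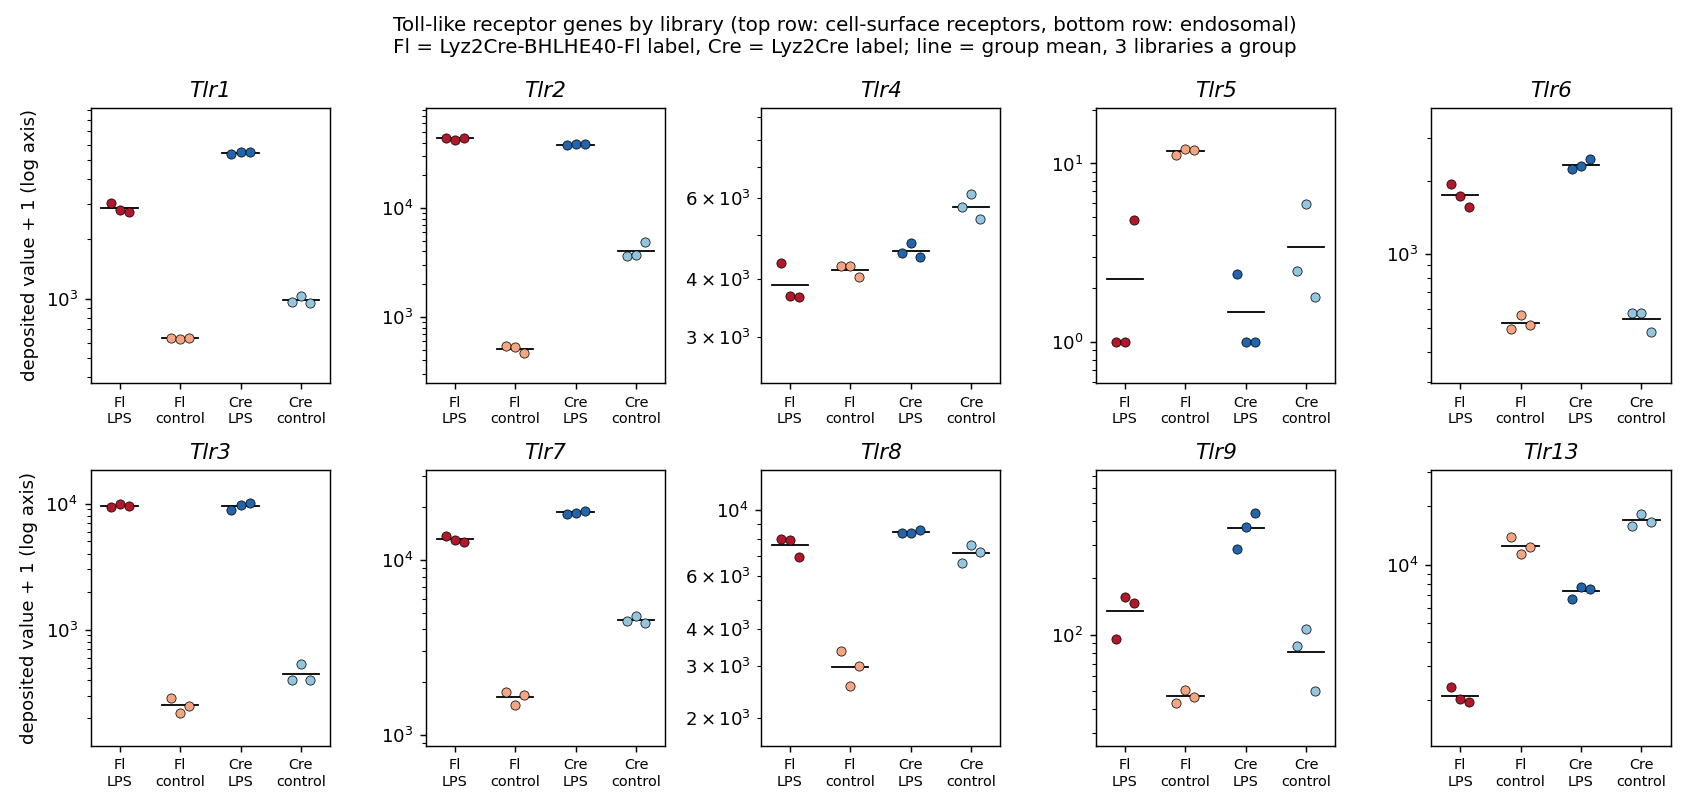
Deposited value + 1 (log axis, own range per panel) of each Toll-like receptor gene in 12 libraries; points are libraries, lines are group means, Fl stands for Lyz2Cre-BHLHE40-Fl and Cre for Lyz2Cre. In the Tlr2 panel the 6 libraries with LPS lie between 37886.9 and 44472.2, and the controls split by label.

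Tlr1 and Tlr6 encode the partners of TLR2 and lie near each other on chromosome 5, Tlr1 (ENSMUSG00000044827) from 64924679 to 64933563 and Tlr6 (ENSMUSG00000051498) from 64952031 to 64960097, both on the minus strand. Tlr1 stood at 3030.0, 2801.4 and 2733.7 in Lyz2Cre-BHLHE40-Fl libraries with LPS, against 632.5, 623.7 and 631.2 in their controls. In Lyz2Cre it stood at 5359.4, 5515.9 and 5499.5 with LPS, against 964.6, 1028.6 and 948.9 in controls. The 4 groups did not overlap for Tlr1, with Lyz2Cre above the other label in both treatments. It was 4.54-fold higher with LPS in Lyz2Cre-BHLHE40-Fl (limma adjusted p = 4.55e-15) and 5.57-fold higher in Lyz2Cre (limma adjusted p = 1.44e-15).

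Tlr6 values were 1938.1, 1732.6 and 1562.8 in Lyz2Cre-BHLHE40-Fl libraries with LPS, against 495.1, 564.5 and 513.8 in their controls. The Lyz2Cre libraries gave 2230.2, 2299.3 and 2448.0 with LPS, against 574.3, 573.1 and 481.5 in controls. Both control groups overlapped, and both groups with LPS stood above them. Tlr6 was 3.33-fold higher with LPS in Lyz2Cre-BHLHE40-Fl (limma adjusted p = 2.20e-11) and 4.28-fold higher in Lyz2Cre (limma adjusted p = 1.87e-12). The 2 genes are alike in sequence: 454 stretches of 50 bases occur in the transcripts of both, and 15.4% of such stretches in Tlr1 and 12.3% in Tlr6 are also found in some other gene. How the counting treated reads of those stretches is not given in the sources used here, so part of each value is uncertain.

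Tlr4 (ENSMUSG00000039005, chromosome 4 from 66827584 to 66930284, plus strand), the LPS receptor gene, changed little as deposited. It stood at 4330.2, 3681.5 and 3657.9 in Lyz2Cre-BHLHE40-Fl libraries with LPS, against 4266.8, 4279.8 and 4042.9 in their controls. In Lyz2Cre it stood at 4552.1, 4789.0 and 4463.7 with LPS, against 5722.1, 6124.0 and 5394.1 in controls. The groups overlapped in Lyz2Cre-BHLHE40-Fl and did not in Lyz2Cre. Its log2 change in Lyz2Cre-BHLHE40-Fl was -0.11 (95% interval -0.27 to 0.04, limma adjusted p = 0.223), which became -0.73 (limma adjusted p = 1.30e-07) with equal library totals. Without Lyz2Cre-BHLHE40-Fl LPS replicate 1 it was -0.19 (limma adjusted p = 0.0273). In Lyz2Cre, Tlr4 was 1.25-fold lower with LPS (log2 -0.32 ± 0.07 SE, limma adjusted p = 1.45e-03). Relative to the median of all genes these changes were -0.06 in Lyz2Cre-BHLHE40-Fl and -0.32 in Lyz2Cre as deposited, and -0.18 in Lyz2Cre-BHLHE40-Fl and -0.48 in Lyz2Cre with equal totals.

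Tlr5 (ENSMUSG00000079164, chromosome 1 from 182954788 to 182976044, plus strand) was close to the limit of detection. Over 3 libraries it had 3 reads in Lyz2Cre-BHLHE40-Fl with LPS and 43 in its controls, and 1 read in Lyz2Cre with LPS and 9 in its controls. The deposited values were 0, 0 and 3.8 in Lyz2Cre-BHLHE40-Fl libraries with LPS, against 10.2, 11.1 and 10.9 in their controls. Lyz2Cre libraries gave 1.4, 0 and 0 with LPS, against 1.5, 4.9 and 0.8 in controls. In Lyz2Cre-BHLHE40-Fl the groups did not overlap, and Tlr5 was 8.22-fold lower with LPS (exact 95% interval of the ratio 2.63 to 41.4, counting error only, limma adjusted p = 1.50e-03). In Lyz2Cre the groups overlapped, with a ratio of control to LPS of 5.04 (interval 0.699 to 221, limma adjusted p = 0.161).

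Of the endosomal receptors, Tlr3 (ENSMUSG00000031639, chromosome 8 from 45395665 to 45411080, minus strand) moved most. Its values were 9335.7, 9954.3 and 9544.9 in Lyz2Cre-BHLHE40-Fl libraries with LPS, against 284.3, 217.1 and 249.3 in their controls. In Lyz2Cre they were 8843.0, 9714.6 and 10146.7 with LPS, against 397.2, 529.3 and 395.3 in controls. The 6 libraries with LPS formed 1 overlapping range far above both control groups. Tlr3 was 38.4-fold higher with LPS in Lyz2Cre-BHLHE40-Fl (log2 5.27 ± 0.11 SE, limma adjusted p = 4.27e-17) and 21.7-fold higher in Lyz2Cre (log2 4.45 ± 0.11 SE, limma adjusted p = 6.86e-16). The antisense gene Gm45542 overlaps 381 exonic bases of Tlr3, and its own values were between 0 and 4.7 in all libraries. Whether the counting used strand is not given in the sources used here.

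Tlr7 and Tlr8 lie on the same strand of chromosome X, Tlr7 (ENSMUSG00000044583) from 167304929 to 167330558 and Tlr8 (ENSMUSG00000040522) from 167242696 to 167264329, minus strand. Tlr7 stood at 13749.0, 13013.2 and 12719.4 in Lyz2Cre-BHLHE40-Fl libraries with LPS, against 1759.3, 1475.6 and 1685.6 in their controls. In Lyz2Cre it stood at 18275.1, 18578.2 and 19120.8 with LPS, against 4485.8, 4746.0 and 4353.2 in controls. The 4 groups did not overlap. It was 8.02-fold higher with LPS in Lyz2Cre-BHLHE40-Fl (limma adjusted p = 2.21e-16) and 4.12-fold higher in Lyz2Cre (limma adjusted p = 6.24e-14).

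Tlr8, its neighbour, behaved unlike Tlr7 in Lyz2Cre. Its values were 7960.6, 7910.3 and 6952.7 in Lyz2Cre-BHLHE40-Fl libraries with LPS, against 3360.2, 2573.7 and 2992.1 in their controls. Lyz2Cre libraries gave 8348.3, 8372.5 and 8547.9 with LPS, against 6651.3, 7600.9 and 7247.4 in controls. The Lyz2Cre-BHLHE40-Fl controls stood apart below the other 9 libraries. With LPS Tlr8 was 2.56-fold higher in Lyz2Cre-BHLHE40-Fl (log2 1.36 ± 0.09 SE, limma adjusted p = 2.78e-10). In Lyz2Cre it was 1.18-fold higher (log2 0.24 ± 0.09 SE, limma adjusted p = 0.0332). That direction turned to -0.49 with equal library totals (limma adjusted p = 4.41e-05) and to -0.68 with quantile normalization (limma adjusted p = 2.92e-06). Relative to the median of all genes the change was 0.24 as deposited and 0.07 with equal totals. Neither edgeR (adjusted p = 0.287) nor limma with no filter (adjusted p = 0.0528) called the rise. The call as deposited was lost without Lyz2Cre control replicate 1 (limma adjusted p = 0.142) and without any 1 of the Lyz2Cre libraries with LPS. Those gave limma adjusted p = 0.0645, 0.0671 and 0.0861 for replicates 1, 2 and 3.

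Tlr9 (ENSMUSG00000045322, chromosome 9 from 106222598 to 106226883, plus strand) was a low gene. It stood at 93.6, 156.4 and 146.5 in Lyz2Cre-BHLHE40-Fl libraries with LPS, against 42.2, 49.7 and 45.7 in their controls. In Lyz2Cre it stood at 282.1, 369.7 and 443.3 with LPS, against 85.5, 105.4 and 49.4 in controls. Each group with LPS stood above its controls. The rise was 2.88-fold in Lyz2Cre-BHLHE40-Fl (limma adjusted p = 8.86e-05) and 4.56-fold in Lyz2Cre (limma adjusted p = 7.85e-07).

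Tlr13 (ENSMUSG00000033777, chromosome X from 106143204 to 106160493, plus strand), which has no counterpart in humans, fell with LPS in both labels. Its values were 2332.5, 2033.2 and 1953.6 in Lyz2Cre-BHLHE40-Fl libraries with LPS, against 13860.9, 11427.1 and 12296.0 in their controls. In Lyz2Cre they were 6665.6, 7709.1 and 7537.0 with LPS, against 15872.2, 18369.6 and 16553.4 in controls. None of the groups overlapped, and Lyz2Cre-BHLHE40-Fl with LPS was lowest. Tlr13 was 5.95-fold lower with LPS in Lyz2Cre-BHLHE40-Fl (log2 -2.57 ± 0.09 SE, limma adjusted p = 4.04e-14). In Lyz2Cre it was 2.32-fold lower (log2 -1.21 ± 0.09 SE, limma adjusted p = 1.97e-09).

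The promoters of the genes that rose most with LPS, Tlr2 and Tlr3, and of Tlr13, which fell, are shown for comparison. Each window runs from 250 bases before to 50 bases after a RefSeq transcription start (GRCm38.p6), is written 5′ to 3′ on the strand of the gene, and has motif matches in capitals.
Tlr2 (chr3:83841559-83841858, minus strand): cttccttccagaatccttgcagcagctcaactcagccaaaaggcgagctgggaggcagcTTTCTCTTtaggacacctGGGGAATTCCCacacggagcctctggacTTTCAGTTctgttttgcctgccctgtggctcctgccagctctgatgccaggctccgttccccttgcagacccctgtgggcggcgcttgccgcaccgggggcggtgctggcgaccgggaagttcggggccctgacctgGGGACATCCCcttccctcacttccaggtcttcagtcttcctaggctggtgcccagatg
Tlr3 (chr8:45410331-45410630, minus strand): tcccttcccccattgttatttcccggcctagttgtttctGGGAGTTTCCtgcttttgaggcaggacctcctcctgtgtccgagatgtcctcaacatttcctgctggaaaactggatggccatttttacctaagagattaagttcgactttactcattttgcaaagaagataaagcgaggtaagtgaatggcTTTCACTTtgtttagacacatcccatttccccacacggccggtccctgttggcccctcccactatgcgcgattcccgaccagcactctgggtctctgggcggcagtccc
Tlr13 (chrX:106143025-106143324, plus strand): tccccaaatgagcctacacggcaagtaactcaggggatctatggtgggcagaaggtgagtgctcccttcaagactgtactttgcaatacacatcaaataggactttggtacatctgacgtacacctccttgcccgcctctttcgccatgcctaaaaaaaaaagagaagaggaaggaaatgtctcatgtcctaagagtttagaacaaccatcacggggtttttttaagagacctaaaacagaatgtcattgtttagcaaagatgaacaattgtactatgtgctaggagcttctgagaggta

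Motifs were searched on both strands: the NF-kB consensus, the core AANNGAAA of interferon regulatory factors (IRF), the core of interferon-stimulated response elements (GAAA, then NN, then GAAA), the E-box CACGTG, to which BHLHE40 is known to bind, and the PU.1 core GAGGAAGT. NF-kB and IRF factors act downstream of Toll-like receptors, and PU.1 is a factor of the myeloid lineage. The Tlr2 window held the NF-kB consensus at -173 and -172, which overlap, and at -8, and the IRF core at -191 and -145, positions being those of the first base of the match from the start site. The Tlr3 window held the NF-kB consensus at -211 and the IRF core at -59. None of the 5 motifs was in the Tlr13 window. The same held for the windows of Tlr5 and Tlr8 and for 1 window of Tlr6. As deposited, Tlr6 and Tlr8 were called higher with LPS, so a window without matches was not particular to Tlr13. The RefSeq table gave 10 windows for 8 of the 10 genes, all but Tlr4 and Tlr7. Of these 10 windows, 2 held the NF-kB consensus (Tlr2 and Tlr3), which 8.46% of all 32851 promoter windows of the same length held. The IRF core was in 4 windows (Tlr1, Tlr2, Tlr3 and Tlr6), where 23.9% of all windows held it. The longer interferon core, which includes the IRF core, was in 1 window of Tlr6 at -116 and -110, where 3.44% of all windows held it. CACGTG was in 1 window, of Tlr1, against 7.15% of all windows, and GAGGAAGT in 2, of Tlr1 and Tlr9, against 3.20% of all windows. A match is a description of letters and shows no binding.

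Between genotype labels, more Toll-like receptor genes were lower than higher in Lyz2Cre-BHLHE40-Fl. With LPS 6 of the 10 were lower (Tlr1, Tlr4, Tlr6, Tlr7, Tlr9 and Tlr13), where 19.8% of all genes were lower, and none was called higher by limma, where 17.7% of all genes were. In controls 8 were lower (Tlr1, Tlr2, Tlr3, Tlr4, Tlr7, Tlr8, Tlr9 and Tlr13), where 16.6% of all genes were lower, Tlr5 was higher, where 15% of all genes were higher, and Tlr6 did not pass the test. The median log2 difference of the 10 genes was -0.33 with LPS, where that of all genes was -0.02, and -0.68 in controls, where that of all genes was 0.00. Equal library totals moved the median of all genes to 0.22 with LPS and to 0.17 in controls, and that of the 10 genes to -0.046 with LPS and to -0.51 in controls. The split of all genes called then became 6200 higher and 2240 lower with LPS, against 3610 and 4033 as deposited, and 5111 higher and 2524 lower in controls, against 3060 and 3385 as deposited. With LPS the count of higher genes was 0 by limma also at an unadjusted p under 0.05, and 0 by edgeR and by DESeq2, while equal library totals gave 2 higher (Tlr2 and Tlr3) and 4 lower, with Tlr4 and Tlr6 no longer called.

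**Figure D4:**
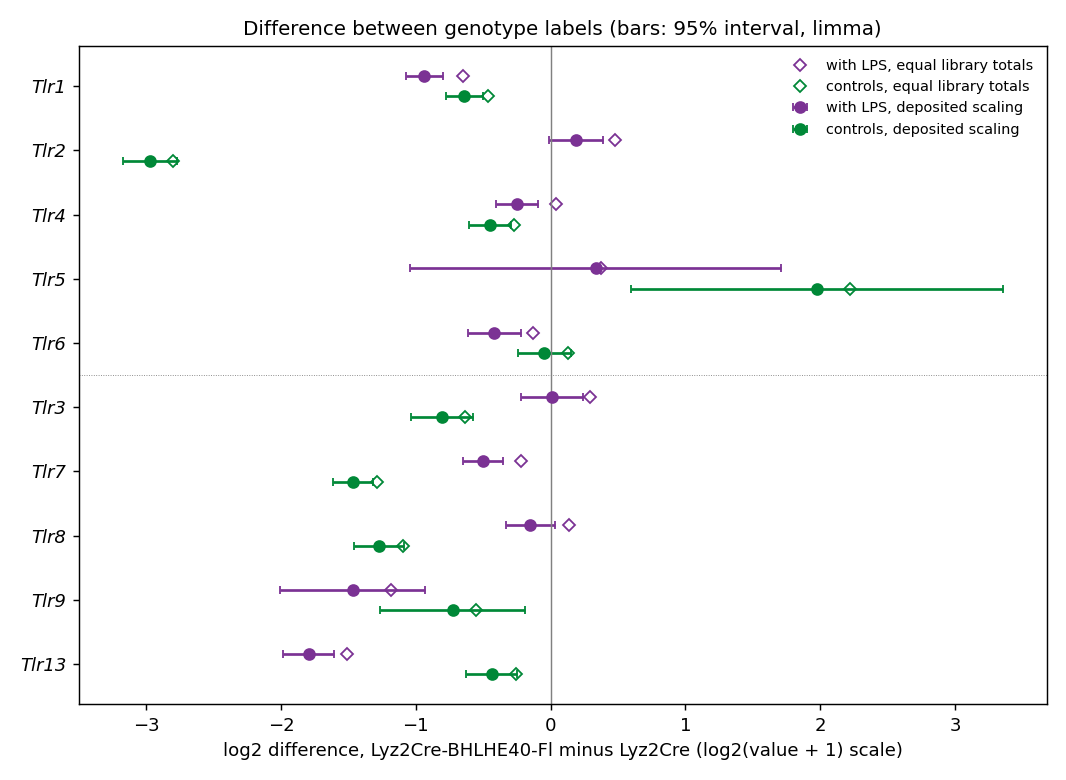
Log2 difference, Lyz2Cre-BHLHE40-Fl minus Lyz2Cre on the log2(value + 1) scale, for each gene with LPS (purple) and in controls (green); filled points with bars are limma estimates with 95% intervals, and open diamonds are the estimates with equal library totals. Tlr2 lies at 0.19 with LPS and at -2.97 in controls, and Tlr13 at -1.80 with LPS and at -0.44 in controls.

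Markers of several cell types moved with these differences. Of all genes, 19.8% were lower and 17.7% higher with LPS, and 16.6% lower and 15% higher in controls. Of the 10 macrophage markers, 9 were lower in Lyz2Cre-BHLHE40-Fl with LPS and 9 in controls, with median log2 differences of -1.02 with LPS and -2.31 in controls. Of the 6 neutrophil markers tested, 4 were lower and 1 higher with LPS and 4 lower and 2 higher in controls, with medians of -3.19 with LPS and -3.40 in controls. Of the 10 T and NK cell markers, 8 were lower and 1 higher with LPS, with a median of -2.17. In controls 7 were lower and 0 higher, with a median of -1.88. Most of these markers were near the floor. In Lyz2Cre-BHLHE40-Fl, 8 of the 10 stayed below 10 in every library with LPS and 9 in every control. In Lyz2Cre, 4 stayed below 10 with LPS and 5 in controls. All 16 markers of mesothelium and stroma were higher in Lyz2Cre-BHLHE40-Fl in both treatments. Mitochondrial transcripts took 0.756%, 1.92% and 1.89% of the reads in Lyz2Cre-BHLHE40-Fl LPS replicates 1, 2 and 3, so replicate 1 stood apart. In Lyz2Cre libraries with LPS they took 0.486% to 0.600%. In controls they took 1.20% to 1.63% in Lyz2Cre-BHLHE40-Fl, against 0.985% to 1.37% in Lyz2Cre. The part of these in the differences of the Toll-like receptor genes was not tested. Lyz2, whose locus carries Cre, stood at 768.7 ± 67.9 against 969.9 ± 56.2 in Lyz2Cre with LPS, and at 170.2 ± 31.5 against 765.8 ± 69.8 in Lyz2Cre controls (SD, n = 3).

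In controls the largest difference was that of Tlr2, which averaged 511.8 ± 42.9 in Lyz2Cre-BHLHE40-Fl and 4055 ± 703 in Lyz2Cre (SD, n = 3). That is 7.92-fold lower in Lyz2Cre-BHLHE40-Fl (log2 -2.97 ± 0.09 SE, limma adjusted p = 6.41e-14). Tlr7 was 2.76-fold lower (limma adjusted p = 1.78e-11) and Tlr8 2.41-fold lower (limma adjusted p = 2.28e-09) in Lyz2Cre-BHLHE40-Fl controls. Smaller differences were those of Tlr3, 1.76-fold lower (limma adjusted p = 1.23e-05), Tlr1, 1.56-fold lower (limma adjusted p = 3.39e-07), Tlr4, 1.37-fold lower (limma adjusted p = 1.01e-04), and Tlr13, 1.35-fold lower (limma adjusted p = 8.50e-04). All of these stayed lower with equal library totals.

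Calls in controls were less firm for Tlr9 and Tlr5. Tlr9 had 184 reads over the Lyz2Cre-BHLHE40-Fl controls, against 300 over the Lyz2Cre controls, and the groups overlapped (log2 -0.73, limma adjusted p = 0.0374). Leaving out single controls moved its adjusted p between 1.95e-03 and 0.187, with the call lost without Lyz2Cre control replicate 1 or 2 or without any 1 Lyz2Cre-BHLHE40-Fl control. It was also lost with equal library totals (limma adjusted p = 0.0981), no filter (0.0519), a pseudocount of 0.1 (0.0511) and the compared groups alone (0.0558). Tlr5 had 43 reads against 9 in Lyz2Cre controls, a ratio of 4.43 (exact 95% interval 2.13 to 10.3, counting error only, limma adjusted p = 0.0274). That call was lost without Lyz2Cre control replicate 1 or 3 or without any 1 Lyz2Cre-BHLHE40-Fl control, with adjusted p between 0.0134 and 0.111 over the libraries left out. It was also lost with a pseudocount of 0.1 (limma adjusted p = 0.246), quantile normalization (0.0511) and DESeq2 (0.0724). The control means of Tlr6 were 524.5 ± 35.9 for Lyz2Cre-BHLHE40-Fl, against 543 ± 53.2 for Lyz2Cre, a log2 difference of -0.05 (95% interval -0.24 to 0.15, limma adjusted p = 0.764).

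With LPS the largest difference was that of Tlr13, which averaged 2106 ± 200 in Lyz2Cre-BHLHE40-Fl and 7304 ± 559 in Lyz2Cre (SD, n = 3), 3.47-fold lower in Lyz2Cre-BHLHE40-Fl (log2 -1.80 ± 0.09 SE, limma adjusted p = 4.06e-11). Tlr9 was 2.76-fold lower (limma adjusted p = 1.71e-04), Tlr1 1.91-fold lower (limma adjusted p = 2.78e-09) and Tlr7 1.42-fold lower (limma adjusted p = 1.80e-05). Tlr6 was 1.33-fold lower (limma adjusted p = 1.56e-03), a call lost with equal library totals (log2 -0.13, limma adjusted p = 0.297). Tlr4 was 1.18-fold lower (log2 -0.25, limma adjusted p = 0.0136), which turned to 0.040 with equal totals and was lost without Lyz2Cre LPS replicate 2 (limma adjusted p = 0.062) and without Lyz2Cre-BHLHE40-Fl LPS replicate 2 or 3 (limma adjusted p = 0.0663 and 0.0714).

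Tlr2, Tlr3, Tlr5 and Tlr8 did not pass the test between labels with LPS. Tlr2 differed by a log2 of 0.19 (95% interval -0.01 to 0.39, limma adjusted p = 0.132), with every Lyz2Cre-BHLHE40-Fl library above every Lyz2Cre library. The difference was 0.48 with equal library totals (limma adjusted p = 5.15e-04) and was called with the compared groups alone (limma adjusted p = 0.0127). Tlr3 averaged 9612 ± 315 in Lyz2Cre-BHLHE40-Fl and 9568 ± 664 in Lyz2Cre, a log2 difference of 0.01 (95% interval -0.22 to 0.24, limma adjusted p = 0.98), and 0.29 with equal library totals (limma adjusted p = 0.03). Tlr8 differed by -0.15 (95% interval -0.33 to 0.03, limma adjusted p = 0.203) and by 0.14 with equal totals.

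The change with LPS itself differed between labels for 6 of the 10 genes, by a test of the interaction, where 18.8% of all genes differed. Tlr2, Tlr3, Tlr7 and Tlr8 rose more on the log2 scale in Lyz2Cre-BHLHE40-Fl, where 9.52% of all genes had a higher change with LPS in that label. Tlr13 fell more and Tlr1 rose less in Lyz2Cre-BHLHE40-Fl, where 9.31% of all genes had a lower change. Equal library totals gave 2568 genes with a higher and 1442 with a lower change, against 1944 and 1902 as deposited. The difference of log2 changes was 3.16 ± 0.13 (SE) for Tlr2 (limma adjusted p = 3.72e-11), 1.13 for Tlr8 (limma adjusted p = 3.08e-06), 0.96 for Tlr7 (limma adjusted p = 1.58e-06), 0.82 for Tlr3 (limma adjusted p = 9.09e-04) and -1.36 for Tlr13 (limma adjusted p = 4.13e-07). On the log2 scale the labels lay further apart in controls than with LPS in Tlr2, Tlr3, Tlr7 and Tlr8, and further apart with LPS in Tlr13. In deposited values the group means of Tlr2 and Tlr7 lay further apart with LPS. For Tlr1 the difference was -0.30 (limma adjusted p = 0.0286), lost with equal library totals (limma adjusted p = 0.177), with quantile normalization (limma adjusted p = 0.536), with edgeR (adjusted p = 0.119) and without any 1 of 7 libraries. Those were Lyz2Cre control replicates 1 and 3, Lyz2Cre LPS replicates 2 and 3, Lyz2Cre-BHLHE40-Fl control replicate 3 and Lyz2Cre-BHLHE40-Fl LPS replicates 2 and 3, with adjusted p between 0.0108 and 0.0792 over all libraries left out. The median over the 10 genes was -0.05, where that of all genes was -0.03.

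Tlr4, Tlr5, Tlr6 and Tlr9 did not pass the interaction test. Tlr4 had a difference of 0.21 (95% interval -0.01 to 0.43, limma adjusted p = 0.205), called at 0.32 with equal library totals (limma adjusted p = 0.0454), and Tlr6 one of -0.37 (95% interval -0.65 to -0.09, limma adjusted p = 0.0589). The Tlr6 difference was called by DESeq2 (adjusted p = 0.0453), with a filter at 5 (limma adjusted p = 0.0497) and without Lyz2Cre-BHLHE40-Fl LPS replicate 1 (limma adjusted p = 0.0189). For Tlr9 it was -0.74 (95% interval -1.50 to 0.02, limma adjusted p = 0.181).

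Ratios of members within a library, which no scaling of libraries can move, are given for 3 pairs as a description. Per kilobase, Tlr2 over its partner Tlr1 was 17.0 ± 0.951 in Lyz2Cre-BHLHE40-Fl libraries with LPS, against 0.903 ± 0.0782 in their controls (SD, n = 3). The Lyz2Cre ratio was 7.78 ± 0.0608 with LPS, against 4.61 ± 0.942 in controls. Tlr7 over Tlr8 was 1.52 ± 0.0811 in Lyz2Cre-BHLHE40-Fl libraries with LPS, against 0.486 ± 0.0231 in their controls. In Lyz2Cre it was 1.95 ± 0.0212 with LPS, against 0.556 ± 0.0331 in controls. So Tlr7 stood above Tlr8 per kilobase in every library with LPS and below it in every control. Tlr13 over Tlr7 was 0.152 ± 0.00816 in Lyz2Cre-BHLHE40-Fl libraries with LPS, against 7.25 ± 0.290 in their controls. The Lyz2Cre ratio was 0.371 ± 0.0239 with LPS, against 3.54 ± 0.166 in controls.

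The genes that work with these receptors were counted from 4 lists. Those counts are to be read against all genes, of which 24.9% rose and 25.6% fell with LPS in Lyz2Cre-BHLHE40-Fl. In Lyz2Cre, 25% of all genes rose and 23.9% fell. Under equal library totals, 2618 of 20741 genes rose and 9571 fell in Lyz2Cre-BHLHE40-Fl, and 2393 rose and 9499 fell in Lyz2Cre. Of 16 partners and trafficking factors, 7 rose and 5 fell with LPS in Lyz2Cre-BHLHE40-Fl, and 9 rose and 4 fell in Lyz2Cre, with a median log2 change of 0.07 in Lyz2Cre-BHLHE40-Fl and 0.36 in Lyz2Cre. With equal library totals 5 rose and 9 fell in Lyz2Cre-BHLHE40-Fl, and 5 rose and 10 fell in Lyz2Cre. Cd14, a co-receptor for LPS, rose in both labels (log2 3.07 in Lyz2Cre-BHLHE40-Fl and 1.95 in Lyz2Cre) and was lower in Lyz2Cre-BHLHE40-Fl, by a log2 of -1.41 with LPS and -2.54 in controls. It is also 1 of the 10 macrophage markers. Ly86, the partner of the Toll-like protein CD180, rose by 2.14 in Lyz2Cre-BHLHE40-Fl and 1.20 in Lyz2Cre, and Cd180 rose by 1.21 in Lyz2Cre-BHLHE40-Fl and 1.75 in Lyz2Cre.

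Among 20 adaptors and proximal kinases, 11 rose and 4 fell with LPS in Lyz2Cre-BHLHE40-Fl, and 13 rose and 3 fell in Lyz2Cre. With equal library totals 8 rose and 8 fell in Lyz2Cre-BHLHE40-Fl, and 8 rose and 9 fell in Lyz2Cre. Myd88, the shared adaptor, rose by a log2 of 3.27 in Lyz2Cre-BHLHE40-Fl and 2.66 in Lyz2Cre. Irf7, the interferon regulatory factor that acts after TLR7 and TLR9, rose by 7.95 in Lyz2Cre-BHLHE40-Fl and 3.0 in Lyz2Cre. Its controls averaged 208.3 ± 2.18 in Lyz2Cre-BHLHE40-Fl and 8382 ± 6165 in Lyz2Cre (SD, n = 3). Ticam2, the adaptor that links TLR4 to TRIF, was lower in Lyz2Cre-BHLHE40-Fl with LPS by a log2 of -1.14 (limma adjusted p = 1.16e-08).

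Of 13 inhibitors of this signalling, 8 rose and 3 fell with LPS in Lyz2Cre-BHLHE40-Fl, and 9 rose and 1 fell in Lyz2Cre. With equal library totals 6 rose and 4 fell in Lyz2Cre-BHLHE40-Fl, and 6 rose and 3 fell in Lyz2Cre. Socs1, a suppressor of cytokine signalling, rose by a log2 of 6.63 in Lyz2Cre-BHLHE40-Fl and 5.72 in Lyz2Cre. Tnfaip3, which encodes the ubiquitin-editing enzyme A20, rose by 4.49 in Lyz2Cre-BHLHE40-Fl and 3.34 in Lyz2Cre. Irak3, a kinase-like brake on MyD88 signalling, was lower in Lyz2Cre-BHLHE40-Fl, by -1.36 with LPS and -1.42 in controls.

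Other sensors of microbial products had the highest median change with LPS of the 4 lists. Of 16, 13 rose and 3 fell with LPS in Lyz2Cre-BHLHE40-Fl and 12 rose and 2 fell in Lyz2Cre, with a median of 3.45 in Lyz2Cre-BHLHE40-Fl and 2.65 in Lyz2Cre. With equal library totals 11 rose and 4 fell in Lyz2Cre-BHLHE40-Fl, and 10 rose and 6 fell in Lyz2Cre. In controls 14 were lower in Lyz2Cre-BHLHE40-Fl by limma, where 16.6% of all genes were lower, and 0 were higher, where 15% were. The count of higher genes was 0 also at an unadjusted p under 0.05, by edgeR and by DESeq2. With equal library totals 11 were lower and 0 higher, where 2524 of 20741 genes were lower and 5111 higher. For 10 of the 16 the change with LPS was higher in Lyz2Cre-BHLHE40-Fl and for 2 lower. Of all genes 9.52% had a higher and 9.31% a lower change. Nlrp3, an inflammasome sensor, rose by a log2 of 6.80 in Lyz2Cre-BHLHE40-Fl and 4.20 in Lyz2Cre. Clec4e, a C-type lectin receptor, rose by 7.59 in Lyz2Cre-BHLHE40-Fl and 4.37 in Lyz2Cre, and in controls it was lower in Lyz2Cre-BHLHE40-Fl by -5.88.

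The remaining mouse Toll-like receptor genes, Tlr11 and Tlr12, were low. Tlr11 stood at 29.1 to 45.1 in Lyz2Cre-BHLHE40-Fl libraries with LPS, against 2.2 to 5.8 in their controls, and at 63.9 to 91 in Lyz2Cre libraries with LPS, against 3.3 to 4.6 in controls. It rose in both labels, by a log2 of 2.97 in Lyz2Cre-BHLHE40-Fl (limma adjusted p = 2.20e-06) and of 3.90 in Lyz2Cre (limma adjusted p = 7.08e-08). Tlr12 had at most 10.5 in any library, with a change with LPS that passed the test in neither label.

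The genes most like each of the 3 members with the highest mean value per kilobase were sought by Pearson correlation of log2(value + 1) over the 12 libraries, among 10094 genes with a mean of at least 50. Tlr2 was most like Mfsd7a (0.998), Ehd1 (0.998) and Stx2 (0.997). Tlr7 was most like Dennd3 (0.999), Sod2 (0.998) and Stox2 (0.998), and Tlr13 most like Arhgap24 (0.996), Rnf128 (0.996) and Lair1 (0.995). The points share libraries and fall into 4 groups, so these values mainly describe the group means. Dennd3, for example, averaged 3583 in Lyz2Cre-BHLHE40-Fl with LPS, 92.7 in Lyz2Cre-BHLHE40-Fl controls, 6911 in Lyz2Cre with LPS and 495 in Lyz2Cre controls.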

How the data were processed

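Per the labels' protocols, total RNA was column-purified for Illumina sequencing. The submitters' processing notes list mm10 as the build, and STAR, Cufflinks and Cuffdiff as tools, with neither roles nor versions. Each deposited value is a signal: in 99.97% to 100% of the values above 0, a whole number of reads (tolerance 0.06) times 1 factor per library, by the values themselves, since no source used here records that step. Every column was mapped to a sample (0 left out).

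Values were used as scaled by the authors. The 20419 genes that reached 1 in 3 or more libraries were fitted on log2(value + 1) with limma 3.58.1 (trend, R 4.3.3), 1 mean per group over 12 libraries, with Benjamini-Hochberg adjustment and a call below 0.05. Folds are ratios of group means, but those of Tlr5 are ratios of reads summed over each group and scaled by the library factors. Log2 changes understate the folds of low genes. The 5 contrasts were LPS in each label, label in each treatment, and the interaction. Other settings tried were a pseudocount of 0.1 or 5, no filter or one at 5, equal library totals, quantile normalization, the compared groups alone, a replicate block, edgeR 4.0.16 and DESeq2 1.42.0 on the whole reads, leaving out each library, and a log2 change of at least 1. The limma step was tested on simulated data. The main test had been planned for normalized values of another kind and was kept for these.

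The Toll-like receptor genes and all lists were chosen with earlier results of these data known. Text names the 10 members, Bhlhe40, cell type markers, and up to 3 called members of each list with the largest change in a contrast, and the 3 genes most correlated with each of 3 members. Replicate pairs differed beyond sampling noise (chi-square per degree of freedom 7.35 to 72.2), so none was taken as the same library. Gene positions and exon lengths are from GENCODE M21 (mm10), promoters from RefSeq (GRCm38.p6). Intervals of read ratios are exact (95%).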

Additional observations from a re-analysis of the deposited data

Results flagged for a closer look

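In 6 genes the change with LPS differed between the genotype labels by the interaction test. The change in Lyz2Cre-BHLHE40-Fl minus that in Lyz2Cre was 3.16 on the log2 scale for Tlr2, 1.13 for Tlr8, 0.96 for Tlr7, 0.82 for Tlr3, -0.30 for Tlr1 and -1.36 for Tlr13. With equal library totals these were 3.27 for Tlr2, 1.23 for Tlr8, 1.07 for Tlr7, 0.93 for Tlr3, -0.19 for Tlr1 and -1.25 for Tlr13, and all but that of Tlr1 stayed past the threshold. The summed macrophage and neutrophil markers were lower, and those of mesothelium and stroma higher, in Lyz2Cre-BHLHE40-Fl libraries than in Lyz2Cre libraries in both treatments. Most of the neutrophil sum in Lyz2Cre was Mmp8, while Csf3r was higher in Lyz2Cre-BHLHE40-Fl. The part of these markers in the differences above was not tested.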

How the results depend on the processing

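Signs turned only where the log2 value as deposited was small. The log2 change with LPS of Tlr8 in Lyz2Cre was -0.49 with equal library totals (limma adjusted p = 4.41e-05). With quantile normalization it was -0.68 (limma adjusted p = 2.92e-06), so a called rise became a called fall in both settings. Relative to the median of all genes, which was -0.57 with equal totals, the change was still 0.07 under that scaling. Between labels with LPS, Tlr8 turned to 0.14 with equal totals and 0.12 with quantile normalization, and Tlr4 to 0.040 with equal totals. Leaving out 1 library moved that difference between -0.047 and 0.052 for Tlr3 (below 0 without Lyz2Cre-BHLHE40-Fl LPS replicate 2 or Lyz2Cre LPS replicate 1) and between -0.42 and 0.75 for Tlr5 (below 0 without Lyz2Cre-BHLHE40-Fl LPS replicate 3). In controls Tlr6 turned to 0.13 with equal totals and 0.069 with quantile normalization. Equal totals multiply each library by 1 factor, so within a comparison they move all but low genes by nearly the same log2 amount. What made the totals differ, and the cause of the other turns, were not tested.

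A minimum log2 change of 1 left 0 genes lower with LPS in Lyz2Cre, 1 lower between labels with LPS, 0 higher and 3 lower between labels in controls, and 1 higher and 0 lower in the interaction. Between labels with LPS, equal totals gave 2 genes higher, and quantile normalization and the compared groups alone gave 1 each. Of all genes, 6200 were higher with equal totals, 3954 with quantile normalization and 3649 with the compared groups alone. In controls the count of genes higher was 0 with a pseudocount of 0.1, with quantile normalization and with DESeq2. In the same order, 2847, 3990 and 3006 of all genes were higher. Genes lower in the interaction numbered 1 with equal totals, quantile normalization and edgeR, where 1442, 1934 and 1474 of all genes were lower. Leaving out 1 library gave 7 higher and 2 to 3 lower with LPS in Lyz2Cre-BHLHE40-Fl, 6 to 7 higher and 2 lower in Lyz2Cre, 0 higher and 5 to 6 lower between labels with LPS, 0 to 1 higher and 7 to 8 lower in controls, and 4 higher and 1 to 3 lower in the interaction.

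No sign was seen that the replicate numbers of the labels pair the libraries. Deviations from group means correlated between -0.066 and 0.028 over 18 same-numbered pairs, and 0 of 12 libraries correlated best with its own number. With 3 libraries a group, a weak shared effect could go unseen. A replicate block left 1 gene lower in the interaction, since Tlr1 missed the threshold (limma adjusted p = 0.0535), and changed no other call of the 10 genes. Depth limits Tlr5, which had at most 43 reads in a group.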
